A study of Homo sapiens with 6 samples.

Results

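The RNAs described here are 10 long noncoding RNAs, chosen by gene symbol: GAS5, SNHG1, SNHG5, SNHG6, SNHG8, SNHG12, SNHG15 and ZFAS1, which carry small nucleolar RNAs (snoRNAs) in their introns, and NEAT1 and MALAT1, which stay in the nucleus. They are 10 of the 65988 gene identifiers in the count files, of which 33139 had at least 1 count and 16105 were tested, and all 10 passed the filter on low counts. They were measured in U87MG, an established human glioblastoma line of genotype WT, as poly(A) RNA. The 3 control libraries came from cells given vehicle and the 3 RSL3 libraries from cells given 2 µM RSL3, an inhibitor of the lipid peroxide-reducing enzyme GPX4 and a type 2 activator of ferroptosis, the iron-dependent death that follows lipid peroxidation. The labels give no time of treatment; the legend in the study gives a day. The study asked which genes respond to RSL3, and the single comparison of the design is RSL3 against control.

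A snoRNA guides the chemical modification of ribosomal or spliceosomal RNA. Box C/D snoRNAs guide ribose methylation by fibrillarin, and box H/ACA snoRNAs guide pseudouridylation by dyskerin. Most human snoRNAs are cut out of an intron of a host transcript after splicing, so 1 transcription event yields both a snoRNA and a spliced host RNA. Many host genes start transcription at a C followed by a run of pyrimidines, the same kind of start as the terminal oligopyrimidine (TOP) mRNAs of ribosomal proteins and elongation factors. Their spliced RNAs carry short reading frames that ribosomes enter, and several, GAS5 among them, are degraded in the cytoplasm by nonsense-mediated decay. NEAT1 and MALAT1 lie next to each other in the genome and host no snoRNA. The long form of NEAT1 is the scaffold of paraspeckles, nuclear bodies built with the RNA-binding proteins NONO and SFPQ, and MALAT1 gathers in nuclear speckles with splicing factors.

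RefSeq places 32 small RNA genes inside the 8 host genes, 25 of them box C/D (SNORD) and 6 box H/ACA (SNORA). GAS5 holds 11, SNHG1 holds 9, SNHG12 holds 4, ZFAS1 holds 3, SNHG5 holds 2, and SNHG6, SNHG8 and SNHG15 hold 1 each. The files list 19 snoRNA identifiers inside these hosts, and the highest count of any of them in any library was 8. An example of each class is printed from GRCh38 to show what the hosts carry. SNORD25 of SNHG1 lies at chr11:62855564-62855632 on the minus strand, with box C and box D in capitals. SNORA24 of SNHG8 lies at chr4:118279190-118279320 on the plus strand, with its ACA box in capitals. Neither had a count in any library. In GENCODE v44 all 69 bases of SNORD25 and all 131 of SNORA24 also lie in exons of their hosts. HTSeq's default gives reads over exons of 2 genes to neither, so low counts of snoRNA identifiers do not show snoRNA levels.
SNORD25: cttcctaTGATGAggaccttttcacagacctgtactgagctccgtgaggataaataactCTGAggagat
SNORA24: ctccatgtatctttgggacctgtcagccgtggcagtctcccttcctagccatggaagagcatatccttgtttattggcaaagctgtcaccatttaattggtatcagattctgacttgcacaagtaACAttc

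The starts of 4 hosts are printed because they hold a pyrimidine run at or beside the start base and a TATAA before it. The RefSeq start of SNHG1 shows neither, and those of SNHG6 and SNHG15 were not examined. RefSeq (GRCh38.p14) gave 8 promoters for 7 of the 10 genes, with 2 for MALAT1. Capitals mark TATAA in the 50 bases before the start, and a run of at least 5 C or T that begins with C within 5 bases of the start base, which is base 61 of each line. TATAA was present before the start in 5 of the 8 promoters (SNHG5, SNHG8, SNHG12, ZFAS1 and 1 of MALAT1), against 4.74% of all 35116 RefSeq promoters. A pyrimidine run of that kind was present in 4 of the 8, all of them hosts, against 18.1% of all promoters. The start base was C and the next 4 bases C or T in 3 of the 8 (SNHG5, SNHG12 and ZFAS1). This held for 4.07% of all promoters. In SNHG8 the run ends at the start base. The windows are chr6:85678684-85678793 (minus strand) for SNHG5, chr4:118278702-118278811 (plus) for SNHG8, chr1:28581824-28581933 (minus) for SNHG12 and chr20:49278582-49278691 (plus) for ZFAS1.
SNHG5: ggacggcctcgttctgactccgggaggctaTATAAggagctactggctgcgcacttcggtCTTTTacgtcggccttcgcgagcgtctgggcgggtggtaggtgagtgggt
SNHG8: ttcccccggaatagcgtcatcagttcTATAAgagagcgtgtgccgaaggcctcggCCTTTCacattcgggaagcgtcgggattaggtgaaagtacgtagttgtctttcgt
SNHG12: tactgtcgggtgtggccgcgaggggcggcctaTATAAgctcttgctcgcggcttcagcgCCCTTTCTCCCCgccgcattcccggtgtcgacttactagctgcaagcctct
ZFAS1: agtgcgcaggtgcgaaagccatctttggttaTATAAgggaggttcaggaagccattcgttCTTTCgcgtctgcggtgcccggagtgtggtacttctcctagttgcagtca

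The RefSeq promoter of GAS5 belongs to a start farther upstream, with neither TATAA nor such a run. The canonical GAS5 transcript of GENCODE v44 starts inside the gene, and the 60 bases before it with its 30 bases of exon 1 (GRCh38 chr1:173867960-173868049, minus strand) do show a pyrimidine start of 6 bases, in capitals. This stretch holds TGACGTCA once and no TATAA.
GAS5: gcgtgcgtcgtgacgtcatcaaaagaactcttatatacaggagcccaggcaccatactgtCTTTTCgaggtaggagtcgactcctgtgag
Of the other motifs searched on both strands of the full RefSeq promoters, CACGTG, TGATGCAA and TGACGTCA were in none of the 8, and TGACNNNGC was in 1, of MALAT1. They were in 7.26%, 0.866%, 1.85% and 13.3% of all promoters, in that order.

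The nuclear RNAs are shown at the stretches of A that are written in the genome, because the libraries were made from RNA caught on oligo(dT). MALAT1 has no classical poly(A) tail: its 3' end is cut by RNase P just before a small tRNA-like RNA and ends in an A-rich tract, and the long form of NEAT1 ends the same way. The 90 bases of MALAT1 before that small RNA (GRCh38 chr11:65506027-65506116, plus strand) and 62 bases around the longest A run of the canonical NEAT1 transcript (chr11:65440823-65440884, plus strand) are printed with runs of at least 8 A in capitals. The run in MALAT1 is 13 bases long. That in NEAT1 has 22 bases and lies inside the gene, which ends at chr11:65445540, so it is not the tract at the 3' end. In the 8 canonical host transcripts the longest A run had between 4 bases (GAS5) and 11 bases (ZFAS1). Selection on oligo(dT) limits how far the counts of NEAT1 and MALAT1 reflect their amounts, and its part in the results was not tested. NEAT1 has 9 annotated transcripts, and counts per gene do not tell its long form from shorter ones.
MALAT1: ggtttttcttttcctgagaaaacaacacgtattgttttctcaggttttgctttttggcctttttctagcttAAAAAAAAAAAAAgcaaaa
NEAT1: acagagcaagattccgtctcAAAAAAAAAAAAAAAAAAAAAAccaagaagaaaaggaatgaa

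The values below are normalized counts, that is, read counts scaled to the mean library size after adjustment with edgeR's TMM method. Total counts ranged from 27813462 to 43306335 per library and TMM factors from 0.995 to 1.01. The line was checked against its markers: VIM, CD44 and CHI3L1 were high (control means of 68287, 24690 and 6094 normalized counts), OLIG2, NES and GFAP were lower (295, 153 and 104), SOX2 and S100B were near 0, and of 6 markers of other cell types the highest mean was 150.1 (MBP, RSL3). VIM (-0.29, adjusted p = 2.20e-08, edgeR), CD44 (-0.39, 1.20e-08) and CHI3L1 (-0.56, 7.06e-09) were called lower with RSL3. The summed level of all 8 line markers ran from 98629 to 100205 in control and from 77916 to 81930.2 in RSL3 libraries, and its part in the results was not tested. MBP was called higher with RSL3 and the summed level of these 6 markers ran from 99.6 to 133 in control and from 161 to 185 in RSL3 libraries, with AIF1 at 0 in all; its part in the results was not tested. Mitochondrial transcripts took 0.918% to 1.26% of counts in control and 0.840% to 0.912% in RSL3 libraries, ranges that did not overlap; their part in the results was not tested. Counts are relative to the library total, and in bulk RNA a change in fewer cells and a change in the amount per cell cannot be told apart. The labels do not say that replicates came from separate cultures, and the study describes its replicates as independent only in a general statement on statistics, so p-values measure the spread between these libraries, which may be technical.

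With RSL3, 6 of the 8 snoRNA host RNAs were higher (GAS5, SNHG1, SNHG6, SNHG8, SNHG15 and ZFAS1), and SNHG5 and SNHG12 were not called. NEAT1 and MALAT1 had lower means with RSL3, and neither was called: edgeR called 0 of the 10 RNAs lower, with 1 (NEAT1) at an unadjusted p under 0.05, and DESeq2 without surrogate variables also called 6 higher and 0 lower. A gene was called at an adjusted p under 0.05 in edgeR's quasi-likelihood F test over all 16105 genes tested. Of these, 2082 (12.9%) were higher, 2041 (12.7%) were lower and 4123 (25.6%) were called in either direction. Calls were more frequent among genes with high counts: of the 6359 genes with a mean count of at least 1000, which include 8 of the 10 RNAs (not SNHG12 and SNHG15), 1384 (21.8%) were higher, and in 3427 (53.9%) the groups did not overlap. Among the 1809 genes annotated as lncRNA and tested, 124 (6.85%) were higher and 61 were lower. The increases were small: the median log2 fold change was 0.17 over the 8 hosts, 0.15 over all 10 RNAs and -0.0044 over all genes tested, and the median over the 2082 higher genes was 0.23. All 8 hosts had a fitted change above 0, against 7890 of 16105 genes, although that of SNHG5 was only 0.012. In 5 of the 10 RNAs the groups did not overlap, against 6215 of 16105 genes (38.6%).

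**Figure D1:**
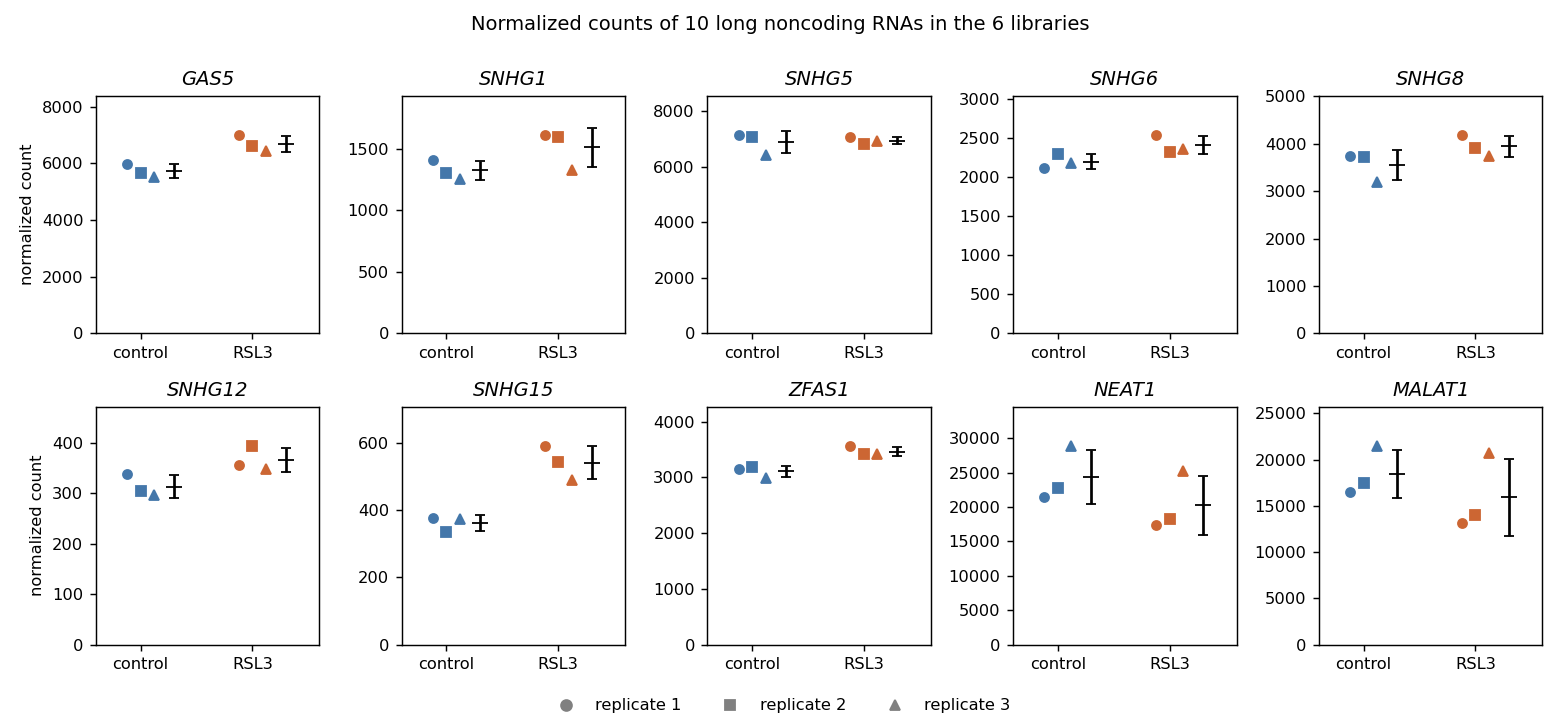
Normalized counts (y axis, from 0 in every panel) of the 10 RNAs in the 3 control (blue) and 3 RSL3 (orange) libraries; marker shapes are the replicate numbers, and the black bars are the mean and SD of each group. SNHG15, GAS5, ZFAS1, SNHG6 and SNHG12 show no overlap between the groups, and in NEAT1 and MALAT1 replicate 3 is the highest library of both groups.

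GAS5 (ENSG00000234741, chr1:173858559-173868882, minus strand; all coordinates are those of GENCODE v44 on GRCh38) accumulates in growth-arrested cells and can bind the glucocorticoid receptor. Its normalized counts were 5979.9, 5673 and 5511 in control replicates 1, 2 and 3. They were 6994, 6620.0 and 6452 in RSL3 replicates 1, 2 and 3. Every RSL3 library was above every control library. GAS5 was 16.8% higher, with a log2 fold change of 0.22 ± 0.037 (SE; adjusted p = 9.42e-05, edgeR). This rise was called in all 18 alternative analyses.

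SNHG1 (ENSG00000255717, chr11:62851978-62855953, minus strand) is the host of SNORD22 and of the SNORD25 to SNORD31 cluster. Normalized counts were 1411, 1307 and 1257 in the control libraries and 1612, 1599 and 1326 in the RSL3 libraries. The third RSL3 library lay inside the control range. SNHG1 was called higher, by 0.19 ± 0.064 (log2, SE; adjusted p = 0.0359, edgeR). The call was lost on leaving out RSL3 replicate 1 (adjusted p = 0.180), RSL3 replicate 2 (0.186), control replicate 2 (0.0779) or control replicate 3 (0.139), while without both libraries numbered 3 it was 0.24 (adjusted p = 0.00479).

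SNHG5 (ENSG00000203875, chr6:85650491-85678932, minus strand) carries the SNORD50 pair. It had 7138, 7082 and 6440.2 normalized counts in control and 7062, 6828 and 6944 in RSL3 libraries, so the RSL3 values lay within the control range. The log2 fold change was 0.012, with a 95% confidence interval from -0.064 to 0.089 (adjusted p = 0.856, edgeR), and its sign turned without control replicate 3 (-0.031). The upper bound of that interval was below the estimates of the other 7 hosts.

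SNHG6 (ENSG00000245910, chr8:66920561-66926398, minus strand), the host of SNORD87, had 2115, 2296 and 2172 normalized counts in control and 2531, 2322 and 2351 in RSL3 libraries. The groups did not overlap, although the highest control and the lowest RSL3 library were close. It was called higher by 0.13 ± 0.043 (log2, SE; adjusted p = 0.0295, edgeR). The call was lost without RSL3 replicate 1 (adjusted p = 0.181), control replicate 1 (0.134) or control replicate 3 (0.0685). Exons of MCMDC2 and of the hosted SNORD87 together cover 62.4% of the SNHG6 exon bases.

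ZFAS1 (ENSG00000177410, chr20:49278178-49299600, plus strand) carries the SNORD12 family and is transcribed away from the start of ZNFX1. Normalized counts were 3145, 3187 and 2992 in control and 3553, 3419 and 3409 in RSL3 libraries, with no overlap. Its rise was the most even of the hosts: the within-group SD was 0.041 on the log2 scale, the lowest of the 10 RNAs. ZFAS1 was 11.3% higher, a log2 fold change of 0.16 ± 0.037 (SE; adjusted p = 0.00303, edgeR), and was called in all 18 alternatives.

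SNHG12 (ENSG00000197989, chr1:28578538-28583132, minus strand) is a mixed host, with SNORA16A, SNORA44, SNORA61 and SNORD99. It had the lowest normalized counts of the 10 in every library, with 339, 304 and 297 normalized counts in control and 355, 393 and 347 in RSL3 libraries. The groups did not overlap, but the change of 0.22 ± 0.095 (log2, SE; 95% confidence interval 0.02 to 0.42) was not called (adjusted p = 0.101, edgeR). Its estimate was as large as that of GAS5 with a wider interval, and it was called in none of the 18 alternatives, in which its adjusted p ranged from 0.0686 to 0.341.

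SNHG8 (ENSG00000269893, chr4:118278703-118285316, plus strand) hosts SNORA24. It had 3750.1, 3715 and 3189 normalized counts in control and 4179.6, 3917 and 3742 in RSL3 libraries, and the third RSL3 library lay just below the first control library. It was called higher by 0.15 ± 0.051 (log2, SE; adjusted p = 0.0318, edgeR). The call was lost without RSL3 replicate 1 (adjusted p = 0.182), RSL3 replicate 2 (0.0719) or control replicate 3 (0.202; log2 fold change 0.08).

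SNHG15 (ENSG00000232956, chr7:44983019-44986961, minus strand), the host of SNORA9, changed most of the 10 in the fit. It had 378, 336 and 375 normalized counts in control and 591, 545 and 491 in RSL3 libraries. The lowest RSL3 library was above the highest control library by more than the SD of either group, the means being 363 ± 23.6 and 542 ± 49.9 (SD, n = 3 each). SNHG15 was 48.6% higher, with a log2 fold change of 0.57 ± 0.088 (SE; 95% confidence interval 0.39 to 0.76; adjusted p = 4.61e-05, edgeR). That fold change was number 290 among the 2082 higher genes, and the call held in all 18 alternatives, with a log2 fold change between 0.51 and 0.66.

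**Figure D2:**
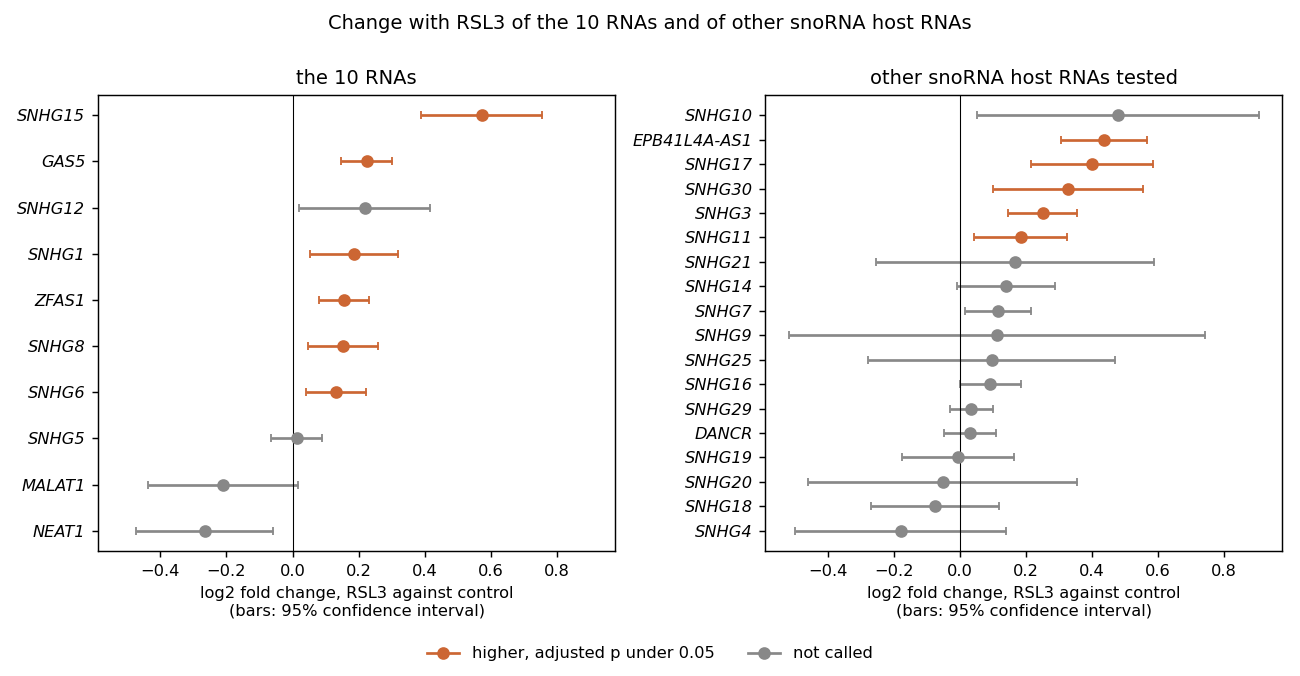
Log2 fold changes of RSL3 against control (x axis) with 95% confidence intervals, for the 10 RNAs (left) and the 18 other snoRNA host RNAs tested (right); orange marks an adjusted p under 0.05 and grey no call. The hosts on the left run from 0.012 (SNHG5) to 0.57 (SNHG15), and NEAT1 and MALAT1 are at -0.27 and -0.21 with wider intervals than the hosts.

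NEAT1 and MALAT1 had a wider spread among replicates than the hosts. NEAT1 (ENSG00000245532, chr11:65422774-65445540, plus strand) had 21477, 22782 and 28829.7 normalized counts in control replicates 1, 2 and 3, and 17333, 18218 and 25233 in RSL3 replicates 1, 2 and 3. Replicate 3 was the highest library in both groups, and RSL3 replicate 3 lay above control replicates 1 and 2. The group means were 24363 ± 3923 and 20262 ± 4328 (SD, n = 3). The log2 fold change of -0.27 (95% confidence interval -0.47 to -0.06) was not called (adjusted p = 0.0548, edgeR).

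MALAT1 (ENSG00000251562, chr11:65497640-65508073, plus strand) had 16535, 17418 and 21417 normalized counts in control and 13131, 13969 and 20705 in RSL3 libraries. The order of the 6 libraries was that of NEAT1, with replicate 3 highest in both groups. The means were 18456 ± 2601 and 15935 ± 4152 (SD, n = 3), and the log2 fold change of -0.21 (95% confidence interval -0.44 to 0.02) was not called (adjusted p = 0.173, edgeR). Both results rest on the libraries numbered 3. Without RSL3 replicate 3, NEAT1 was at -0.45 (adjusted p = 4.66e-05) and MALAT1 at -0.44 (1.99e-05), both called lower. Without control replicate 3 they were at -0.12 (0.384) and -0.09 (0.641), and without both libraries numbered 3 at -0.31 (1.04e-06) and -0.32 (1.27e-06). NEAT1 was also called lower without control replicate 1 (-0.35, adjusted p = 0.0283) or control replicate 2 (-0.31, 0.0428), and was not called without RSL3 replicate 1 (-0.16, 0.283) or 2 (-0.19, 0.248). The changes of MALAT1 without RSL3 replicate 1 (-0.09) or 2 (-0.12) were smaller.

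Among the 6359 genes with a mean count of at least 1000, NEAT1 and MALAT1 ranked 9 and 8 by within-group SD, at 0.26 and 0.29 on the log2 scale against a median of 0.046. The 8 hosts lay between 0.041 (ZFAS1) and 0.13 (SNHG1). NEAT1 and MALAT1 moved together: there were 1.30, 1.31 and 1.35 NEAT1 counts per MALAT1 count in control and 1.32, 1.30 and 1.22 in RSL3 libraries. This ratio was 1.32 ± 0.025 in control and 1.28 ± 0.055 with RSL3 (SD, n = 3; exact two-sided permutation test p = 0.5, where 3 against 3 libraries cannot go below 0.1).

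In replicate 3 of both groups, where NEAT1 stood 0.25 and 0.34 above its group mean on the log2 scale and MALAT1 0.22 and 0.41 above, 6 of the 8 hosts stood below theirs. GAS5 was at -0.053 and -0.051, SNHG1 at -0.075 and -0.18, SNHG8 at -0.15 and -0.075 and ZFAS1 at -0.054 and -0.021 in the same libraries, and SNHG6 and SNHG12 were also below. SNHG5 and SNHG15 did not keep 1 sign across both groups. The matching share over all genes was not counted, so these signs are not shown to be particular to the hosts. Of the 6359 genes with a mean count of at least 1000, 228 apart from NEAT1 and MALAT1 deviated with a correlation above 0.9 to the mean of these RNAs. How many unrelated genes would pass 0.9 over 6 libraries was not determined, and negative correlations were not counted. The number alone does not show a shared pattern. What sets the libraries numbered 3 apart was not tested.

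Levels of different genes were compared per length, as read counts per kilobase of length, scaled to the library size (RPKM). Poly(A) selection limits the values of NEAT1 and MALAT1, so their places in the order among the hosts may not reflect abundance. With all annotated exon bases as the length, control levels fell from MALAT1 (51.8 ± 7.31, SD, n = 3) to GAS5 (34.0 ± 1.42), NEAT1 (31.4 ± 5.05), SNHG6 (25.5 ± 1.07), SNHG5 (16.0 ± 0.901), SNHG8 (15.7 ± 1.39), ZFAS1 (11.0 ± 0.361), SNHG1 (9.77 ± 0.580), SNHG15 (2.70 ± 0.175) and SNHG12 (2.15 ± 0.154). The control ranges of GAS5 and NEAT1 overlapped, as did those of SNHG5 and SNHG8, and the other neighbours in this order did not overlap. The order depends on the length used, since GAS5 has 91 annotated transcripts and SNHG5 has 89. With the canonical transcript alone (768 bases for GAS5 and 1316 bases for SNHG5, against 4932 and 12604 exon bases), GAS5 stood highest at 218 ± 9.10 RPKM and SNHG5 followed at 153 ± 8.63 RPKM, ahead of MALAT1. SNHG12 and SNHG15 were the lowest by either length. For NEAT1 the lengths were nearly the same (22767 exon bases and 22743 in the canonical transcript), so the level of any shorter form would be understated.

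**Figure D3:**
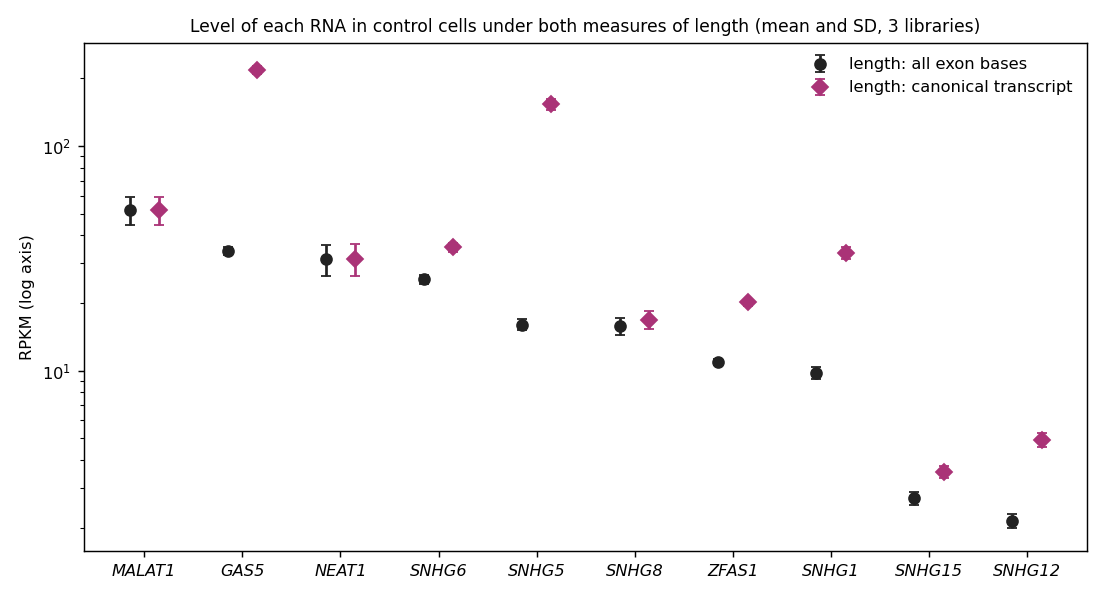
Level of each RNA in control cells (y axis, RPKM, log axis; mean and SD of 3 libraries), with length taken as all exon bases (black circles) or as the canonical transcript (purple diamonds). By all exon bases the range is from 51.8 for MALAT1 to 2.15 for SNHG12, and by canonical transcript GAS5 is highest at 218.

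The genes beside the hosts did not share 1 direction. SLC3A2, the heavy chain of the cystine and amino acid transporters, starts 51 bases from SNHG1 on the other strand. It had 73297, 73805 and 66943 normalized counts in control and 102524, 100436 and 95869.5 in RSL3 libraries. SLC3A2 was called higher by 0.48 ± 0.033 (log2, SE; adjusted p = 8.35e-10, edgeR), beside 0.19 for SNHG1. ZNFX1, a zinc finger helicase whose start lies 248 bases from that of ZFAS1 on the other strand, had 3973, 3923 and 3971 normalized counts in control and 3654, 3509 and 3745 in RSL3 libraries, all below the control range. It was called lower (-0.12 ± 0.035, SE; adjusted p = 0.0118, edgeR), where ZFAS1 was higher. That call was lost without RSL3 replicate 2 (adjusted p = 0.0961). ZBTB37 starts on the other strand at chr1:173868082, 800 bases from the outermost annotated start of GAS5 and nearer to the canonical GAS5 start. It was at -0.25 and not called (adjusted p = 0.0871, edgeR).

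The reads were counted without regard to strand, and with HTSeq's default setting a read over exons of 2 genes is given to neither. Exons of other genes in the files cover 62.4% of SNHG6, 43.1% of ZFAS1 and 39.6% of SNHG8, 15.4% of SNHG1, 13.7% of SNHG5 and under 10% of each of the other 5 RNAs in GENCODE v44. For MALAT1 the share is 7.30%, and 83.7% with an antisense gene that is not among the identifiers of the files. The genes over SNHG6 (MCMDC2, 0.60, adjusted p = 0.162), SNHG8 (PRSS12, 0.032, 0.883) and SNHG12 (TRNAU1AP, 0.042, 0.731) were not called in edgeR's test, and ENSG00000271793, beside SNHG5, did not pass the filter. MCMDC2 had a mean of 24.4 normalized counts in control and 37.5 with RSL3, and PRSS12 had 215 and 220.3, far below the 2194 of SNHG6 and the 3552 of SNHG8.

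Other snoRNA host RNAs, from a list of 21, gave 18 tested genes, of which edgeR called 5 higher, 0 lower (also 0 at an unadjusted p under 0.05) and 13 not, with a median log2 fold change of 0.11 and 14 of 18 above 0. DESeq2 called 3 of them higher and 0 lower, and edgeR called 3 without RSL3 replicate 2 or without control replicate 2. For this list and the lists below, the shares over all genes tested were 12.9% higher and 12.7% lower. A change above 0 was seen in 7890 of 16105 genes. Over genes with a mean count of at least 1000, 21.8% were higher. EPB41L4A-AS1, the host of SNORA13, rose from 711 ± 31.6 to 959.9 ± 48.1 normalized counts (SD, n = 3; log2 fold change 0.44, adjusted p = 1.95e-05, edgeR). SNHG17 rose by 0.40 (adjusted p = 0.00180) and SNHG3, the host of SNORA73, by 0.25 (0.000736). SNHG11 and SNHG30 were the other called genes, at 0.18 (0.0490) and 0.33 (0.0310). SNHG29, with the highest normalized counts of the list in control (18581), was at 0.034 (adjusted p = 0.486), and DANCR was at 0.031 (0.611). SNHG32 is listed at 0 in all libraries, and the cause was not tested.

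TOP mRNAs of the translation machinery are known for the kind of start printed above for SNHG5, SNHG12, ZFAS1 and the canonical GAS5 transcript. Of 15 tested, edgeR called 0 higher (also 0 at an unadjusted p under 0.05, and 0 with DESeq2), 1 lower and 14 not, with a median log2 fold change of 0.011. The gene called lower was EIF4B, an initiation factor (-0.13, adjusted p = 0.00240, edgeR). EEF1A1, the main elongation factor, was at -0.041 (0.233) with 184172 normalized counts in control. EEF1G is listed at 0 in all libraries, and the cause was not tested.

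Nonsense-mediated decay factors, which degrade several of the hosts, had 10 of 18 genes higher, 1 lower and 7 not called, with a median log2 fold change of 0.12; the share called higher was 12.9% over all genes tested and 21.8% over those with a mean count of at least 1000. SMG1, the kinase that phosphorylates UPF1, was higher by 0.26 (adjusted p = 1.24e-05, edgeR), from 10218 to 12213 normalized counts. The endonuclease SMG6 was higher by 0.18 (0.00246), and the helicase UPF1 itself was higher by 0.14 (0.0144), a call lost without RSL3 replicate 2 (0.0507) or control replicate 3 (0.0926). UPF3A was lower (-0.14, 0.00543), whereas its paralog UPF3B was higher by 0.20 (0.0211). The number called, 11 in both directions, was 5 with DESeq2 and 2 surrogate variables, 7 without RSL3 replicate 1, 6 without control replicate 1 and 5 without control replicate 3.

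The proteins that assemble and carry snoRNAs gave 2 higher, 1 lower and 11 not called of 14 tested, with a median log2 fold change of 0.06. RUVBL1, an ATPase of snoRNP assembly, was higher by 0.23 (adjusted p = 7.23e-05, edgeR). NOP58, a core box C/D protein, was higher by 0.13 (0.0377), and SHQ1, an assembly factor of box H/ACA particles, was lower (-0.18, 0.0434), but leaving out single libraries ended these calls for NOP58 (RSL3 replicates 1 and 2, control replicates 2 and 3) and for SHQ1 (all but control replicate 3). DKC1, dyskerin, was at 0.06 (0.341). FBL, fibrillarin, was listed at a mean of 34.8 normalized counts in control and 34.6 with RSL3, beside 1791.5 in control for NOP58. The cause of this low count was not tested, so it may not reflect the level of FBL.

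Of 14 paraspeckle proteins 1 was higher, 0 were lower (1 at an unadjusted p under 0.05, and 0 with DESeq2) and 13 were not called, with a median log2 fold change of 0.06. The gene called was SFPQ, at 0.09 (adjusted p = 0.0414, edgeR), a call lost without RSL3 replicate 2 or 3 or without control replicate 1 or 3. NONO was at 0.014 (0.793). With GC content offsets 4 paraspeckle genes were higher and 0 lower, with or without the replicate block, and with total counts in place of TMM 0 were higher and 1 was lower. Of 14 nuclear speckle proteins and MALAT1 binders 0 were higher in edgeR (1 at an unadjusted p under 0.05, and 0 with DESeq2), 1 was lower (SRSF11, a splicing factor, -0.10, 0.0330, lost on leaving out any single library except RSL3 replicate 3) and 13 were not called. The direction depended on the setting: 3 were higher and 0 lower without control replicate 3, 1 higher and 0 lower with GC content offsets, 4 higher and 0 lower with these and the replicate block, 2 higher and 1 lower without both libraries numbered 3, and 0 higher and 2 lower without RSL3 replicate 3. METTL16, a methyltransferase that binds the 3' triple helix of MALAT1, was at -0.010 (0.910).

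The glucocorticoid receptor, which GAS5 can bind, and its target genes gave 2 higher, 3 lower and 3 not called of 8. Over all genes tested, 25.6% were called in either direction. The receptor gene NR3C1 had 5033 normalized counts in control and 4793 with RSL3 (-0.07, adjusted p = 0.125, edgeR). TSC22D3, which encodes GILZ, was lower (-0.62, 5.26e-09), as were FKBP5 (-0.48, 0.00359) and SGK1 (-0.30, 0.00203). DUSP1, a phosphatase of MAP kinases, was higher by 0.35 (2.01e-05), and ERRFI1 by 0.20 (0.000411). Of RNAs without a poly(A) tail, edgeR called 0 of 7 tested genes in either direction, with 1 higher and 1 lower at an unadjusted p under 0.05 and 0 called by DESeq2. Without both libraries numbered 3 it called 2 lower, and without RSL3 replicate 3 it called 1.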

How the data were processed

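U87MG poly(A) RNA was sequenced as read pairs from 3 control and 3 RSL3 libraries. The authors used Trimmomatic 0.36 and Fastp for trimming, HISAT2 for alignment (genome GRCh38.p4) and HTSeq-count 0.6.1p1 for unstranded counting over exons; the annotation release is not given in the sources used here. The deposited values are raw counts per Ensembl gene and library, not normalized. Groups and replicate numbers came from the labels.

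The test was that of edgeR 4.0.16 under R 4.3.3 (filterByExpr, minimum count 10; TMM; quasi-likelihood F test without covariates; Benjamini-Hochberg adjustment over 16105 genes). Total counts of 27813462 to 43306335 per library limit precision to counting error and replicate spread. Alternatives were DESeq2 1.42.0 with 0, 1 or 2 surrogate variables (sva 3.50.0), other scalings and filters, offsets on GC content, a replicate block and each library left out. Scripts were tested on simulated data. Coordinates come from GENCODE v44, promoters from RefSeq.

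Named were all 10 RNAs, protein-coding genes that start within 5000 bases or share exon bases, and, of each list, up to 3 called genes per direction with the smallest p plus UPF1, FBL, DKC1, NONO, SFPQ, METTL16, NR3C1 and EEF1A1. SNHG11, SNHG30, UPF3B, SNHG29, DANCR, PTGS2, STC1 and EGR1 were named after their values were seen. The RNAs and lists were chosen with earlier results of these data known. A few genes that the rule takes in are not reported here.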

Additional observations from a re-analysis of the deposited data

How the results depend on the processing

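The calls of GAS5, SNHG15 and ZFAS1 and the missing calls of SNHG5 and SNHG12 were the same in all 18 alternatives. The calls of SNHG1, SNHG6 and SNHG8 were lost in 6, 5 and 4 of the 18, and NEAT1 and MALAT1 were called lower in 8 and 5. Of the 10 RNAs, 3 were called with DESeq2 and 2 surrogate variables (2453 of all genes), 3 at an adjusted p under 0.01 (2691 genes), and between 3 and 8 with 1 library left out; the cause was not tested. With 1 library left out, between 3081 and 3924 of all genes were called. Without both libraries numbered 3, an alternative chosen after the data were seen, 5 RNAs were called higher and 2 lower. No filter gave extreme values for NEAT1 (-0.26, adjusted p = 4.29e-19) and MALAT1 (-0.21, 2.70e-11).

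Same-numbered control and RSL3 libraries deviated from their group means with a correlation over genes of 0.025, 0.027 and 0.072. These values are small, but each library correlated best with its own number. The labels do not describe the numbers as pairs, so the main fit took none. Whether same-numbered libraries were handled together was not tested. With the number as a replicate block, 8 of the 10 RNAs were called, 6 higher and 2 lower (NEAT1 -0.27, adjusted p = 5.63e-08; MALAT1 -0.23, 8.70e-05), SNHG12 had an adjusted p of 0.0947, and 4633 of all genes were called. With block and GC content offsets, 8 RNAs and 4735 genes were called.

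With the longest transcript as length, levels in control were 53.3 RPKM for GAS5, 35.0 for SNHG5, 35.3 for SNHG6, 4.59 for SNHG12, 3.28 for SNHG15 and 20.1 for ZFAS1. With the canonical transcript, chosen after the data were seen, they were 218 for GAS5, 33.4 for SNHG1, 153 for SNHG5, 35.3 for SNHG6, 4.90 for SNHG12, 3.55 for SNHG15 and 20.1 for ZFAS1. The shorter length makes each of these higher.

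Signs that turned belonged to log2 fold changes near 0 that were not called. With 1 library left out, SNHG5 ran from -0.031 (without control replicate 3) to 0.040, PRSS12 from -0.025 (RSL3 replicate 1) to 0.10, TRNAU1AP from -0.0019 (RSL3 replicate 2) to 0.081, NONO from -0.0086 (control replicate 3) to 0.031, FBL from -0.21 (control replicate 1) to 0.19 and METTL16 from -0.044 to 0.029 (RSL3 replicate 2). FBL was also at -0.013 without RSL3 replicate 2 and METTL16 at 0.0051 without control replicate 2. Without both libraries numbered 3, SNHG5 was at -0.031 and NONO at -0.010. FBL was at -0.0019 and -0.00040 with DESeq2 and 1 or 0 surrogate variables and at -0.0072 with total counts, and METTL16 was at 0.0083 with GC content offsets and at 0.0095 with these and the replicate block. For the other genes and lists named, 610 of 718 values kept direction and call. The raw counts of SNHG12 and SNHG15, from 247 to 525 per library, were the lowest of the 10 RNAs and limit their precision.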

Other observations

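Other genes also stood apart in the libraries numbered 3, and the mRNAs plotted beside NEAT1 and MALAT1 were chosen after their values were seen. They were picked because they followed NEAT1 and MALAT1. Among genes with a mean count of at least 1000 and a correlation above 0.9 to the mean of these RNAs, they had the steepest deviations. EGR1, an immediate early transcription factor, had 1181, 1075 and 2315 normalized counts in control replicates 1, 2 and 3, and 1774, 1804 and 3044 in the RSL3 libraries. STC1, the secreted glycoprotein stanniocalcin, had 4184, 4172 and 6592 in control and 2959.9, 2912 and 4989 in RSL3 libraries. PTGS2, the inducible prostaglandin synthase and a common marker of ferroptosis, had 3416, 3513 and 4675 in control and 3027, 3163 and 4711 in RSL3 libraries. In all of them replicate 3 was the highest library of its group, as in NEAT1 and MALAT1, which follows from how they were chosen.

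With RSL3, STC1 was called lower (-0.46, adjusted p = 0.0341, edgeR) and EGR1 (0.53, 0.0553) and PTGS2 (-0.09, 0.649) were not called. By within-group SD on the log2 scale, EGR1 (0.53), STC1 (0.41) and PTGS2 (0.31) ranked 1, 4 and 7 among the 6359 genes with a mean count of at least 1000, beside MALAT1 and NEAT1 at 8 and 9. The deviations of PTGS2 in the 2 libraries numbered 3 were 0.29 and 0.40, beside 0.25 and 0.34 for NEAT1. The ranks and deviations of these mRNAs follow from their choice and are no separate evidence of a shared pattern. The signal recognition particle RNAs RN7SL1 and RN7SL2, which have no poly(A) tail, were at 615 and 471 normalized counts in control and 512 and 361 with RSL3, and were not called (adjusted p = 0.272 and 0.136, edgeR).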
